A study of Mus musculus with 2 samples.

Results

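The aminoacyl-tRNA synthetases were examined as a group of 36 genes, 20 cytosolic and 16 mitochondrial, out of 23444 gene symbols. Members were taken by gene name, and the values of all transcript rows of a gene were added. A gene whose name ends in 2 was taken as mitochondrial. Gars and Kars, which each encode the cytosolic and the mitochondrial form of their enzyme from 1 gene, were counted as cytosolic. All 36 members reached 1 FPKM (fragments per kilobase of transcript, normalised for the depth of its library) in at least 1 library and so counted as detected.

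The data are RNA-seq of cultured bone marrow derived macrophages of the inbred mouse strain FVB, with 1 library per group. Cells of the first group carried wild type RON and were labelled WT, and cells of the second were labelled RON TK-/-, a genotype deficient in RON (the WT-labelled and the TK-labelled library below). RON, the product of Mst1r, is a receptor tyrosine kinase of macrophages. Both labels state culture in high glucose medium with serum, pyruvate and glutamine, and treatment for 72 hours with 10 ng/mL of recombinant interleukin-4. With 1 library per group there was no replicate check and no test, so higher and lower compare 2 libraries and not the genotypes.

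Each synthetase joins 1 amino acid to its tRNAs with the energy of ATP, and the charged tRNAs feed the ribosome. Cytosolic and mitochondrial ribosomes mostly use separate sets of synthetases, all encoded in the nucleus. Several cytosolic enzymes sit in a multisynthetase complex held together by the scaffold proteins Aimp1, Aimp2 and Eef1e1. Many cytosolic synthetase genes are known targets of ATF4, the transcription factor of the amino acid response, whereas Wars, which encodes the tryptophanyl-tRNA synthetase, is also known as a gene induced by interferon gamma.

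The libraries stood apart well beyond the synthetases. Mst1r was listed at 0 FPKM in both, where 3 reads would have given 0.0107 FPKM in the WT-labelled library and 0.00949 in the other, limits that cover counting error only. It therefore checked neither label. All 6 markers of a response to interleukin-4 were at least 2-fold higher in the TK-labelled library, with a summed level of 14839 FPKM against 72.8 in the WT-labelled library. All 7 markers of a response to interferon gamma or endotoxin were at least 2-fold lower, with 6.68 against 13132 FPKM. The interleukin-4 markers thus went against the treatment stated for the WT-labelled library. Macrophage markers were present in both, with Cd68 at 746 and 955 FPKM and Lyz2 at 3317 and 4651. Of 5 fibroblast markers 4 were detected, summing to 620 and 721 FPKM, while the summed markers of dendritic, neutrophil, mast, lymphoid and erythroid cells were at most 2.34 FPKM a list, with Cd3e and Elane listed at 0 in both. The part of fibroblast RNA in the synthetase values was not tested. Whether fewer cells of a type or less RNA per cell lie behind a difference cannot be told apart in bulk RNA. Implied depths were about 59800000 reads for the WT-labelled library and 67100000 for the other.

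The log2 ratio used below is that of FPKM + 1 in the TK-labelled library over FPKM + 1 in the WT-labelled library, a scale that understates the differences of low genes. Its median over all 11288 detected genes was 0.57, so a ratio near 0.57 is that of a typical gene here. At least 2-fold higher were 25.6% of detected genes and at least 2-fold lower were 8.71%. Relative to the median these shares were 8.38% and 14.4%.

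Letters that match the ATF4 and C/EBP composite site of amino acid response genes stood in the start regions of 5 cytosolic members. Whether they bear on the levels of these genes was not tested. The regions are RefSeq windows of build GRCm38.p6 from 250 bases before to 50 bases after a gene's start, which were at hand for 27 of the 36 members. Capitals mark the match to TGATGNAA on either strand. Each site is written 5′ to 3′ in the direction of its gene, and positions count the first base of the RefSeq start as 1. For each gene 1 match is shown.
Aars: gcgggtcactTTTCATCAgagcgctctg
Gars: ggctgcgctaTTTCATCAtgcaccgggc
Tars: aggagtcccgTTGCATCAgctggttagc
Iars: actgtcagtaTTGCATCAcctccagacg
Yars: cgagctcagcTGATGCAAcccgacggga

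The match shown began at position 10 in Aars (chr8:111033841-111033868), and 30 bases before the start in Gars (chr6:55037961-55037988). In Tars, on the minus strand, the match began 15 bases before the start (chr15:11399656-11399683). It began at position 8 in Iars (chr13:49682127-49682154) and at position 4 in Yars (chr4:129189896-129189923). The deposited row of Yars begins further upstream than its RefSeq window places the start, at base 129189795 of chromosome 4, so position 4 does not hold for the measured transcript of Yars. Of all 32851 windows 3.97% held TGATGNAA. The interferon-stimulated response element matched in Qars and in 3.44% of windows. The 9 members without a window were Cars, Hars, Lars, Nars, Rars, Vars, Wars, Hars2 and Pars2. These matches are descriptions of letters and not of binding.

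Of the 20 cytosolic synthetases 12 were at least 2-fold higher in the TK-labelled library and 1, Wars, was at least 2-fold lower. Of all detected genes 25.6% were higher and 8.71% lower by as much. The median log2 ratio was 1.06, which is 0.50 above that of all detected genes. Their summed level was 554 FPKM in the WT-labelled library and 993 in the other, and without Wars 476 and 958. Of all 36 members 34 had a ratio above 0, as did 76.4% of detected genes. Relative to the median of all genes, 17 of the 20 lay above it, where 50.0% of detected genes do, but only Iars stayed at least 2-fold higher. Against that offset the cytosolic count of 2-fold higher genes is 1 of 20, below the 8.38% of all detected genes.

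**Figure D1:**
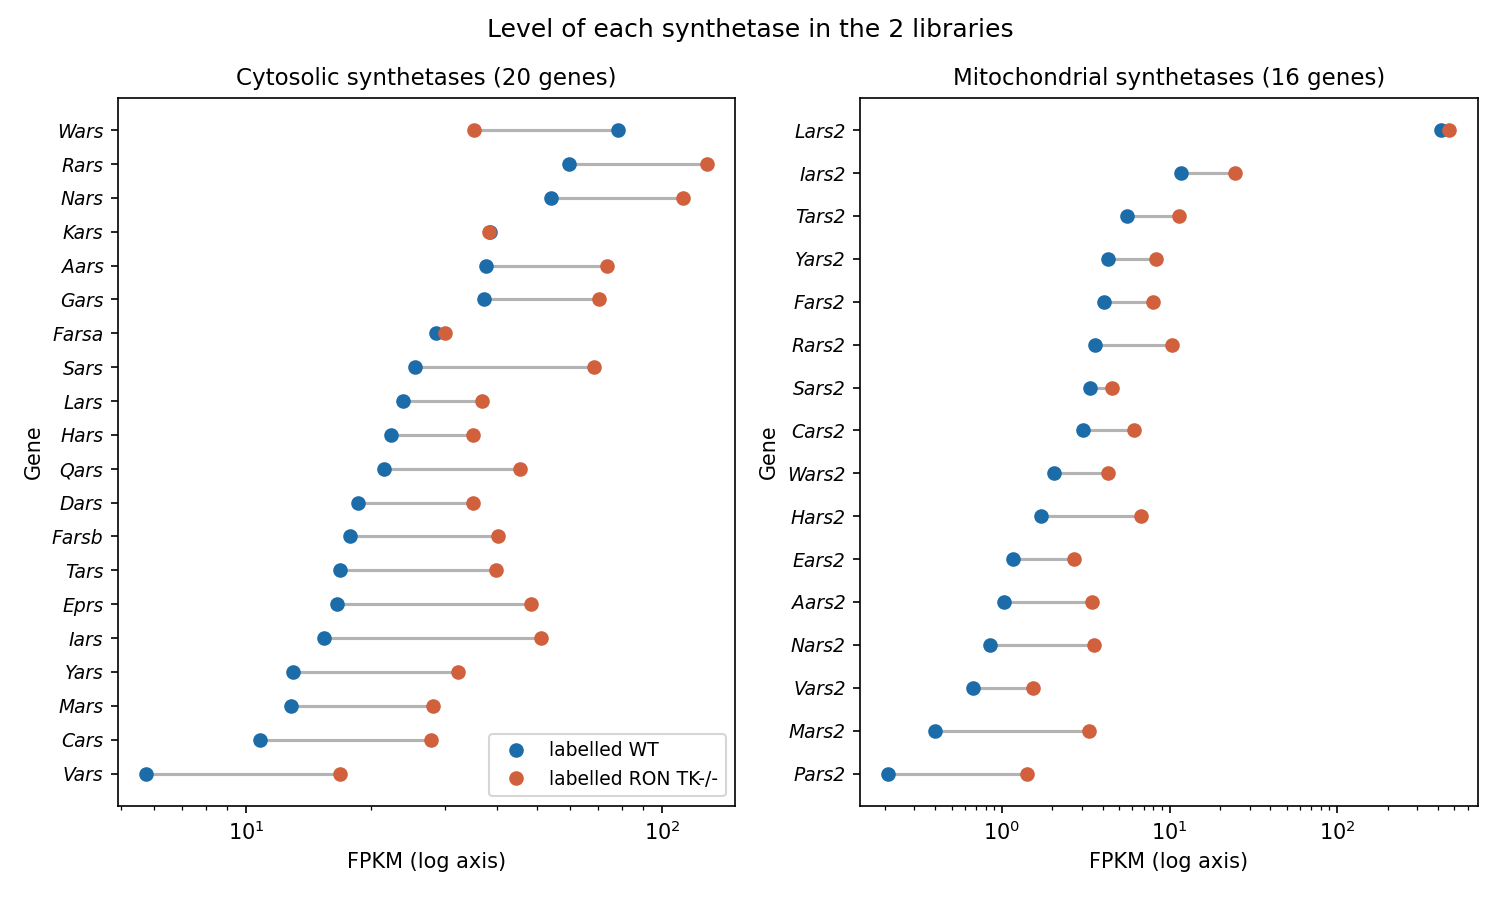
FPKM on a log axis of each cytosolic (left) and mitochondrial (right) synthetase gene, with 1 point for the WT-labelled library and 1 for the TK-labelled library, joined by a line and ordered by the former. Wars is the cytosolic gene whose points are reversed, Kars and Farsa nearly coincide, and Lars2 stands far above the other mitochondrial genes.

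The largest cytosolic ratio was that of Iars (chr13:49682130-49734267 of mm10), the isoleucyl enzyme, with 15.4 FPKM in the WT-labelled library and 51.1 in the TK-labelled library. Next came Eprs, the fused glutamyl and prolyl enzyme, with 16.5 and 48.3 FPKM. Vars, the valyl enzyme, had 5.75 and 16.8 FPKM and was the lowest cytosolic member in both libraries. Sars, which charges serine and also provides the serine-loaded precursor of selenocysteine tRNA, had 25.5 and 68.4 FPKM. These 4 genes had log2 ratios between 1.39 and 1.67.

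Cars, Yars, Tars, Farsb, Rars, Mars, Qars and Nars made up the rest of the 2-fold group, with log2 ratios from 1.04 to 1.29. Among them Rars, the arginyl enzyme, went from 59.7 to 128 FPKM and Nars, the asparaginyl enzyme, from 54.1 to 112. These were the highest cytosolic levels in the TK-labelled library. The cysteinyl enzyme Cars had 10.8 and 27.8 FPKM and the tyrosyl enzyme Yars 12.9 and 32.2. For Tars, the threonyl enzyme, the values were 16.8 and 39.9 FPKM.

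Aars, Gars and Dars were just short of 2-fold on the FPKM + 1 scale. Aars, the alanyl enzyme, had 37.7 and 73.6 FPKM, the glycyl enzyme Gars 37.3 and 70.4, and the aspartyl enzyme Dars 18.5 and 35.1. The histidyl enzyme Hars (22.3 and 35.1 FPKM) and the leucyl enzyme Lars (23.8 and 36.9) had ratios of 0.63 and 0.61, close to that of a typical gene.

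Kars and Farsa were level between the libraries as deposited, and so lay below a typical gene. Kars (chr8:111993439-112011354), the lysyl enzyme, had 38.4 FPKM in the WT-labelled library and 38.3 in the other, from about 4793 and 5398 estimated reads. Farsa (chr8:84856986-84869257), the catalytic alpha subunit of cytosolic phenylalanyl-tRNA synthetase, had 28.6 and 30.0 FPKM. Its partner Farsb (chr1:78417958-78488897), the beta subunit, had 17.8 and 40.2 FPKM. The ratio of Farsb to Farsa level was thus 0.62 in the WT-labelled library and 1.34 in the TK-labelled library, although both subunits make up 1 enzyme.

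Synthetases inside and outside the multisynthetase complex had like medians. Of the 8 synthetases of the complex (Dars, Eprs, Iars, Kars, Lars, Mars, Qars and Rars) 5 were at least 2-fold higher, with a median log2 ratio of 1.06. Of the 12 outside it 7 were, with a median of 1.09, and of all detected genes 25.6% were. Both Iars, with the largest cytosolic ratio, and Kars, at -0.01, belong to the complex. Its scaffolds had smaller ratios, of 0.89 for Aimp1 (17.2 and 32.8 FPKM), 0.67 for Aimp2 (11.8 and 19.3) and 0.32 for Eef1e1 (19.0 and 24.1), and 0 of 3 were 2-fold apart. By structural class, 7 of 9 cytosolic class I genes were at least 2-fold higher against 4 of 10 of class II, with medians of 1.09 and 0.92. Relative to the median of all genes 1 of 9 class I and 0 of 10 class II genes were, beside 8.38% of detected genes. Eprs, which holds a domain of each class, was left out of that split.

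Wars ran the other way. It had 78.2 FPKM in the WT-labelled library, where it ranked first of the 20 cytosolic genes, and 35.3 FPKM in the TK-labelled library, where it ranked 13. Its log2 ratio was -1.12, or -1.69 relative to the median of all genes, and 7.86% of detected genes had a lower one. Estimated reads for the gene were about 12928 and 6659. Its mitochondrial counterpart Wars2 had 2.05 and 4.32 FPKM, so the level of Wars was 38.2 times that of Wars2 in the first library and 8.18 times in the second.

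The transcript rows showed where the difference in Wars lay. The gene spans chr12:108860030-108894174 of mm10 on the minus strand, and 3 RefSeq transcripts were listed. NM_001164314 begins at the upstream start. It had 30.0 FPKM in the WT-labelled library and 33.4 in the TK-labelled library. NM_001164488, a transcript of equal coding length that begins 976 bases further downstream, had 42.9 FPKM in the first and 0.00105 in the second. NM_011710, a shorter transcript from the downstream start region, had 5.29 and 1.89 FPKM. Without NM_001164488 the gene summed to 35.3 FPKM in each library, so that this single row held the whole difference of Wars as deposited.

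The starts are better told apart than the rows. In GENCODE models matched by RefSeq identifier, the first coding base lies in exon 2 at the same position in all 3 transcripts, so the starts differ in untranslated sequence. Of the 50-base windows of these models, 105 occur only in the upstream-start transcript and 37 only in both downstream-start transcripts, but just 1 only in NM_001164488. The authors' estimate divides reads between rows, and with reads of 50 bases the downstream rows are hard to separate from each other. Added together they had 48.2 FPKM in the WT-labelled library and 1.89 in the TK-labelled library, a 25.5-fold lower level. Downstream-start transcripts were 61.6% of Wars in the first library and 5.35% in the second, whereas the upstream-start transcript differed by a log2 ratio of 0.15.

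**Figure D2:**
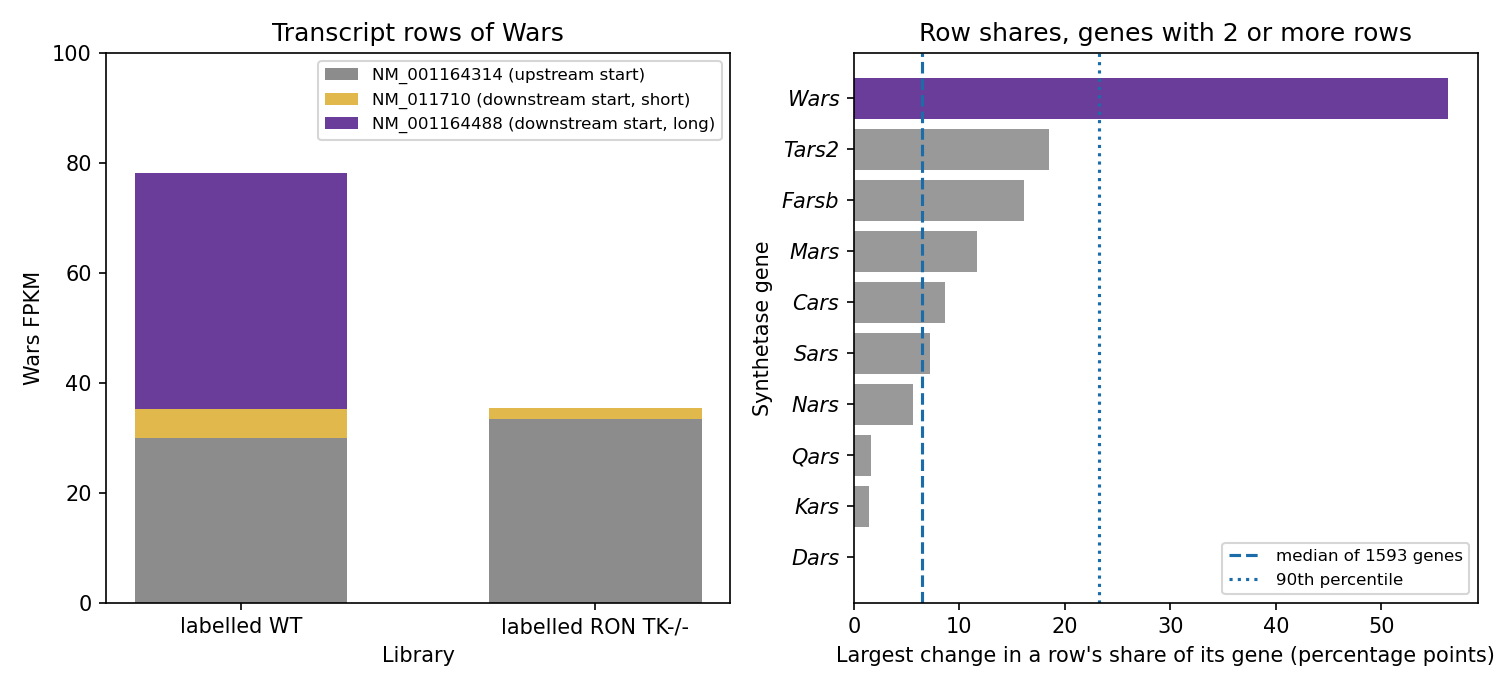
Left, FPKM of the 3 transcript rows of Wars stacked for each library. Right, largest change between libraries in a row's share of its gene, in percentage points, for the 10 synthetase genes with at least 2 rows and at least 5 FPKM in both libraries, with lines at the median (6.48) and the 90th percentile (23.3) of all 1593 such genes. The downstream-start rows are nearly absent from the second bar, and only Wars lies beyond the 90th percentile.

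Such a change in the makeup of a gene was rare. Among 1593 genes with at least 2 rows and at least 5 FPKM in both libraries, 0.565% (9 genes) had a row whose share differed by at least 50 percentage points, and Wars, at 56.3 points, ranked 4. The median largest change was 6.48 points. Of the 10 synthetases under this rule the other 9 changed by at most 18.5 points. That was Tars2, in which NM_001163618 had 1.03 FPKM in the WT-labelled library and was near 0 in the other. In Farsb the row NM_001278075 went from 27.7% to 43.8% of the gene, and in Mars the row NM_001171582 from 3.22% to 14.9%.

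Interferon gamma genes had the direction of Wars, and most amino acid response genes that of the other cytosolic members. In the TK-labelled library 15 of 16 interferon gamma genes were lower by 2-fold or more and 0 were higher, and the median log2 ratio was -5.59. Of all detected genes 8.71% were lower and 25.6% higher by as much. The part of an interferon response in the value of Wars was not tested. Cxcl10, Cxcl9, Cxcl11 and Gbp5 led that list. The chemokine Cxcl10 had 4711 FPKM in the WT-labelled library and 0.23 in the other, and the guanylate binding protein Gbp5 584 and 0.61. On the FPKM + 1 scale the 1 gene within 2-fold was Ido1, which degrades tryptophan, the amino acid that Wars charges. It had 1.28 and 0.17 FPKM, low levels at which the added 1 shrinks a ratio. Relative to the median of all genes 16 of 16 were lower by 2-fold or more, beside 14.4% of detected genes.

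Among 24 amino acid response genes the median was 1.56, and 13 were higher by 2-fold or more and 1 lower. Of all detected genes 25.6% were higher and 8.71% lower by as much. Chac1, a glutathione-degrading enzyme, had 1.04 and 18.6 FPKM, the transcription factors Ddit3 and Atf5 6.48 and 52.7 and 20.5 and 147, and Phgdh, which opens the serine pathway, 6.94 and 52.1. The lower gene was the transcription factor Cebpb (262 and 65.9 FPKM). Asns, the asparagine synthetase, had 32.0 and 59.8 FPKM, and Atf4 itself 95.6 and 168.8, ratios of 0.88 and 0.81. Relative to the median of all genes 12 of these 24 stayed higher by 2-fold or more and 3 were lower by as much. Among the 20 cytosolic synthetases 1 was higher and 1 lower, and among all detected genes 8.38% were higher and 14.4% lower. The 3 lower amino acid response genes were Cebpb, the transcription factor Atf3 (178.5 and 118.6 FPKM) and Slc7a11, the cystine transporter (7.30 and 3.28). Atf3 and Slc7a11 also ran lower without that offset, within 2-fold on the FPKM + 1 scale. The lists were chosen with earlier results of these data known, and none of them is independent support for another.

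**Figure D3:**
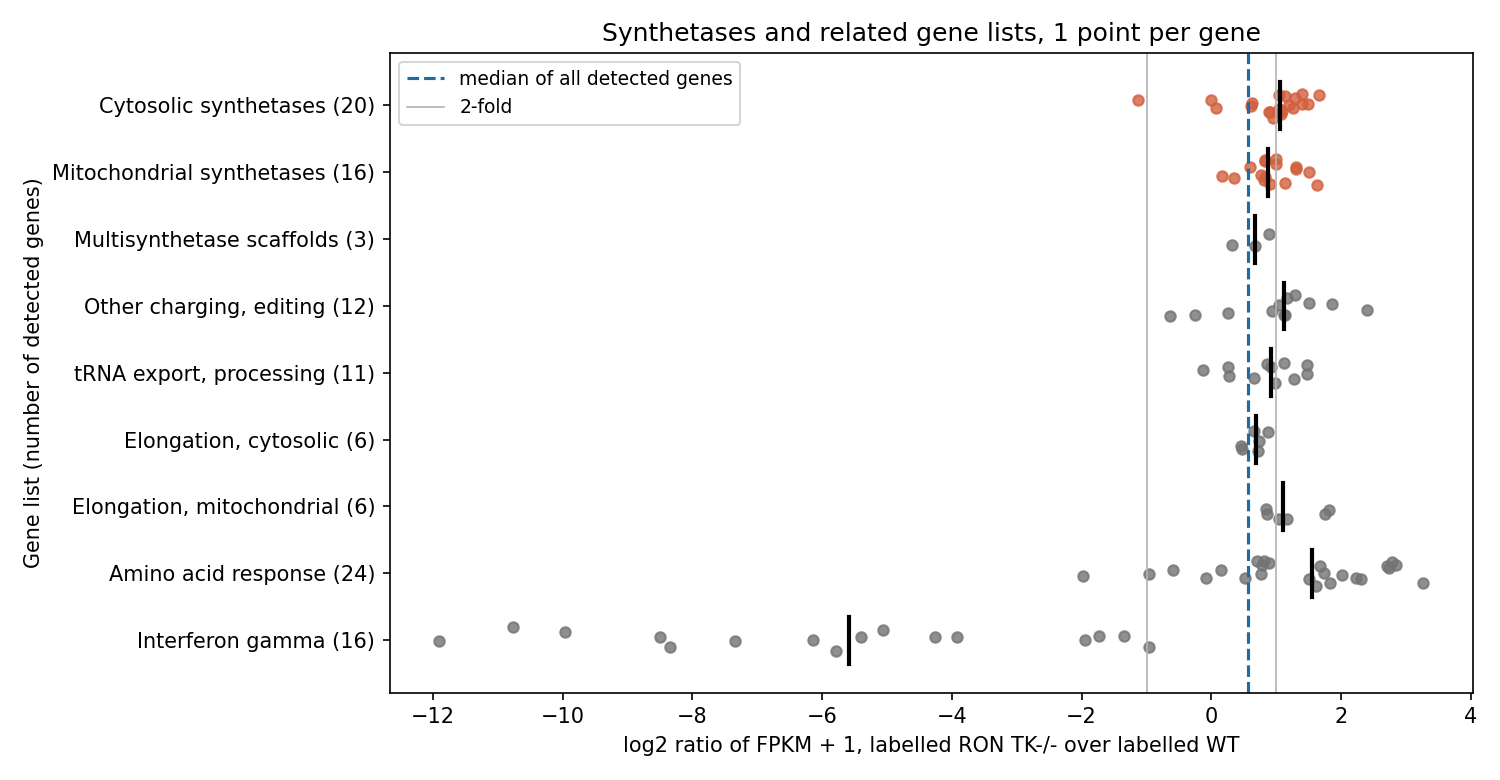
log2 ratio of FPKM + 1 between the libraries, 1 point per detected gene, for both synthetase groups and 7 related gene lists. Black bars are list medians, the dashed line is the median of all detected genes (0.57) and grey lines mark 2-fold. Cytosolic and mitochondrial synthetases mostly lie to the right of the dashed line, amino acid response genes reach further right, and interferon gamma genes lie far to the left.

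Of 10 genes of eIF2, its kinases and the phosphatase that opposes them, a pathway that responds to uncharged tRNA and other stresses, 1 was at least 2-fold higher and 3 lower. Of all detected genes 25.6% were higher and 8.71% lower by as much. Eif2ak3, the kinase PERK of the endoplasmic reticulum, had 1.19 FPKM in the WT-labelled library and 7.55 in the other. Eif2ak4, the kinase GCN2 that binds uncharged tRNA, had 1.32 and 3.52 FPKM, within 2-fold on this scale. The 3 lower genes were Eif2ak2, the interferon-induced kinase PKR (53.7 and 12.1 FPKM), and Ppp1r15a (64.5 and 12.3) and Ppp1r15b (61.2 and 27.9), which direct the phosphatase that reverses the kinases.

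All 16 mitochondrial synthetases had a higher FPKM in the TK-labelled library. On the FPKM + 1 scale the median log2 ratio was 0.87. Above the median of all genes lay 14, where 50.0% of detected genes do. By 2-fold or more 5 of 16 (31.25%) were higher, near the 25.6% of all detected genes. None were lower by as much, where 8.71% of detected genes were. The 5 were Mars2, Hars2, Rars2, Nars2 and Aars2. Mars2, the methionyl enzyme, had 0.40 FPKM in the WT-labelled library and 3.30 in the other, and stayed 2-fold higher relative to the median. Hars2, the histidyl enzyme, had 1.71 and 6.71 FPKM, the arginyl enzyme Rars2 3.58 and 10.3, the asparaginyl enzyme Nars2 0.85 and 3.54, and the alanyl enzyme Aars2 1.03 and 3.45.

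Most mitochondrial members had low levels, at which the added 1 shrinks a ratio. Their median level was 2.54 FPKM in the WT-labelled library and 5.36 in the other, against 21.9 and 39.1 for the cytosolic genes, and 4 of 16 were below 1 FPKM in the WT-labelled library. Pars2, the prolyl enzyme, was the lowest, with 0.21 and 1.41 FPKM from about 28.0 and 223 estimated reads. Vars2, the valyl enzyme, had 0.67 and 1.53 FPKM. Without an added constant the median FPKM fold was 2.20 for mitochondrial and 2.13 for cytosolic members. With a constant of 0.1, 12 of the 16 mitochondrial and 12 of the 20 cytosolic genes were at least 2-fold higher, where 34.8% of detected genes were. The medians of the 2 groups then differed by 0.02 on the log2 scale, against 0.20 with a constant of 1.

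Of the remaining mitochondrial genes, Iars2 had 11.7 and 24.5 FPKM and Tars2 5.59 and 11.3. The values were 4.28 and 8.32 FPKM for Yars2, 4.06 and 7.96 for Fars2, 3.03 and 6.17 for Cars2 and 1.16 and 2.68 for Ears2. Ears2 charges glutamate also onto the mitochondrial glutamine tRNA, which an amidotransferase then corrects. Sars2, the mitochondrial seryl enzyme, had 3.36 and 4.56 FPKM and a ratio of 0.35, below a typical gene.

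Lars2 (chr9:123366940-123462664), the mitochondrial leucyl enzyme, differed from all other members in level. It was listed at 419 FPKM in the WT-labelled library and 468 in the other, 35.7 and 19.1 times the next mitochondrial gene, with a log2 ratio of 0.16. Whether all reads behind this level came from Lars2 transcripts was not tested, since reads were not examined. In a GENCODE model of its transcript, 3 of 3845 windows of 50 bases occur in a transcript of another gene, the noncoding Gm15564. Because Lars2 made up most of the summed mitochondrial level, that sum went from 463 to 568 FPKM with it and from 43.7 to 100.1 without it. The median log2 ratio of the mitochondrial genes was 0.90 without it.

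Set side by side by amino acid, the cytosolic gene had the higher level in both libraries in 15 of 16 pairs, with leucine as the exception. The FPKM fold was larger for the mitochondrial gene in 8 of 16 pairs. Tryptophan was the pair furthest apart, since Wars and Wars2 ran in opposite directions. For serine the cytosolic gene differed more (2.68-fold against 1.36-fold), and for histidine the mitochondrial gene did (3.92-fold against 1.57-fold). Hars and Hars2 are neighbours on chromosome 18, where the listed span of Hars ends at base 36783205 and that of Hars2 begins at base 36783280. Ears2 and Pars2 were both paired with Eprs, and Fars2 with Farsa. The count of 8 depends on that last choice, since Fars2 (1.96-fold) lay above Farsa (1.05-fold) but below Farsb (2.26-fold).

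**Figure D4:**
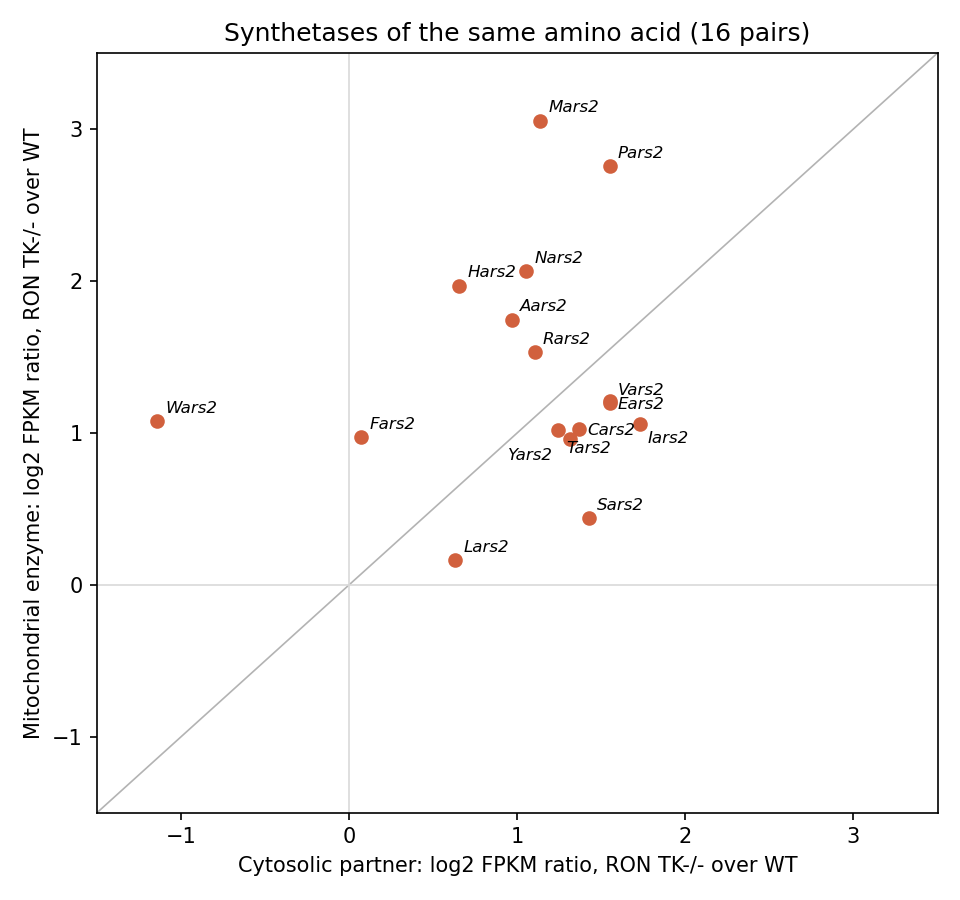
log2 of the FPKM ratio without an added constant, labelled RON TK-/- over labelled WT, of 16 mitochondrial synthetases (vertical axis) against the cytosolic gene for the same amino acid (horizontal axis), named by the mitochondrial gene. The diagonal marks equal ratios; 8 pairs lie above it, and Wars2 is the pair whose cytosolic gene, Wars, lies left of 0.

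Of 12 found members of a list of further charging and editing genes 8 were higher by 2-fold or more and 0 were lower, and the median was 1.13. Of all detected genes 25.6% were higher and 8.71% lower by as much. Relative to the median of all genes 2, Gatc and Pstk, stayed higher by 2-fold or more, and 1, Dtd1, was lower by as much. Those shares were 8.38% and 14.4% of all detected genes. Gatc, a subunit of the mitochondrial glutamine amidotransferase, had 1.65 and 13.0 FPKM, and Pstk, a kinase in selenocysteine tRNA synthesis, 1.15 and 6.77. Ptrh2, a peptidyl-tRNA hydrolase, had 1.36 and 5.69 FPKM. The 4 genes within 2-fold on the FPKM + 1 scale were Sepsecs, Dtd1, Qrsl1 and Aarsd1. The deacylase Dtd1, which removes D-amino acids from tRNA, ran lower, with 3.44 and 1.85 FPKM.

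Some members share sequence with other genes, and no label or header states whether strand was used in counting. In GENCODE models, Iars shares 377 of 4377 windows of 50 bases with the processed pseudogene Gm4849 on the same strand. On opposite strands, Cars2 shares 330 of 1853 windows with Naxd, Nars2 235 of 3729 with the noncoding C230038L03Rik and the Farsb row NM_001278075 201 of 1987 with Sgpp2, and Hars and Hars2 share 146 with each other. The largest overlaps were those of Iars2, with 1985 of 5422 windows shared with Rab3gap2 on the opposite strand, and of Aars, with 1277 of 5701 shared with Exosc6 on the same strand. In both the shared bases lie towards the 3′ end of a model longer than the deposited row. For Iars2 they run from base 3438 of 5471, with a row of 3540 bases, and for Aars from base 4425 of 5750, with a row of 3715. Vars2, Fars2 and Ears2 share at most 3.61% of windows. How far these overlaps bear on the values was not tested, and the values of all these genes are uncertain to that extent.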

How the data were processed

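RNA was measured in 2 libraries, from TRIZOL total RNA, the TruSeq RNA kit and single reads of 50 bases, per the labels' protocols. The authors deposited 1 table per library of FPKM per RefSeq transcript (31580 rows), in the column layout of Cufflinks per the file headers. The deposited coverage is a mean read depth per base. The submitters' processing notes name mm10 and DESeq; neither an aligner nor an annotation release is named there.

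Rows of a gene were summed (Python 3.11.15, pandas 2.3.3). A gene reaching 1 FPKM in 1 library or both counted as detected, a pseudocount of 1 was added, and 2-fold differences were counted without a test. Depth was taken as the median of coverage over FPKM divided by read length, and a gene's reads as its coverage multiplied by length and divided by read length; both are estimates. For row starts, counting from 0 was assumed and 1 was added before printing. So printed, 18 of 35 members matched in the RefSeq table had its start; 2 had it as deposited and the others in neither form. All 36 members were named, and of other lists up to 4 detected genes with the largest absolute ratio, plus those completing a count of 5 or fewer. Atf4, Asns, Eif2ak4, Dtd1 and the row-level examples were chosen after their values were seen. Members and lists were chosen with earlier results of these data known. Some items withheld for evaluation are not reported here. The ratio procedure was tested on simulated data. Alternatives covered the pseudocount, filter, scaling, rows and threshold.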

Additional observations from a re-analysis of the deposited data

How the results depend on the processing

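No paired analysis was possible because each group has 1 library. Under rescaling to a median ratio of 0 the median log2 ratio was 0.50 for cytosolic and 0.30 for mitochondrial synthetases, 1 of each was at least 2-fold higher, and Wars was at -1.69. Scaling without the 100 most abundant genes gave 7 cytosolic genes 2-fold higher, a mitochondrial median of 0.74 and Wars at -1.28. Wars was at -1.20 after TPM rescaling. A pseudocount of 5 gave a mitochondrial median of 0.50, 0 mitochondrial genes 2-fold higher and Wars at -1.04, and a pseudocount of 0.1 gave 12 mitochondrial genes 2-fold higher. A 5 FPKM minimum left 2 of them 2-fold higher. With the most abundant row only, Wars turned to 0.15 and 0 cytosolic genes were 2-fold lower, since that setting drops the row that held its difference. At 4-fold, 0 genes were called in any group or direction, and at 1.5-fold 14 mitochondrial genes were higher. The difference between the cytosolic and mitochondrial medians was 0.20 in the main setting, 0.02 with a pseudocount of 0.1 and 0.46 with a pseudocount of 5. Of 307 other member ratios under these settings, 4 turned sign: Farsa, Lars2 and Sars2 with median rescaling, and Farsa without the most abundant genes. Leaving out Lars2 was added after the data were seen and gave a mitochondrial median of 0.90. Depth limits the lowest genes, Pars2 above all.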

Other observations

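Elongation factors take charged tRNA to the ribosome and move it through. Of 6 cytosolic factors 0 were at least 2-fold apart, with a median log2 ratio of 0.69, close to the 0.57 of all detected genes. Eef1a1, the carrier of charged tRNA, had 2283 FPKM in the WT-labelled library and 3127 in the TK-labelled library, and the translocase Eef2 403 and 560. Mitochondrial translation factors had a median of 1.10, and 4 of 6 were higher by 2-fold or more, beside 25.6% of all detected genes. Of the 4, Tsfm and Mtif2 were also 2-fold higher relative to the median of all genes, as were 8.38% of detected genes. Tsfm had 3.24 and 13.9 FPKM, the initiation factor Mtif2 1.86 and 8.65, Gfm2 4.13 and 10.5 and Tufm, the mitochondrial carrier of charged tRNA, 18.3 and 38.6. The difference between these lists was not tested.

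Genes of tRNA export and processing had a median of 0.92, and 4 of 11 (36.4%) were higher by 2-fold or more, beside 25.6% of all detected genes. Relative to the median of all genes 0 of 11 were. Among the 4 were Tsen54 (1.28 and 4.53 FPKM), a subunit of the tRNA splicing endonuclease, Rpp38 (1.16 and 4.96), a subunit of RNase P, and the exporter Xpot (11.3 and 25.7).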
